A study of Cavia porcellus with 12 samples.

Results

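The resident and scar-associated macrophage genes described here are *TREM2*, *TYROBP*, *GPNMB*, *CD9*, *LGALS3*, *MARCO*, *MSR1*, *CD14*, *CSF1R* and *CD68*. They were taken as those of 10 well-known macrophage genes that had a value in the deposited expression table of genes with a human symbol, which rest on 11031 count rows, and all 10 did. Their RNA was measured in liver tissue of 12 female Dunkin Hartley guinea pigs, 6 with non-alcoholic steatohepatitis (NASH) and 6 controls, by stranded mRNA sequencing with 1 library per animal. Both groups arrived at 10 weeks of age from the same breeder and were fed for 25 weeks, the controls a chow diet with 4% fat and the NASH animals a diet in which fat made up 20%, with sucrose at 15% and cholesterol at 0.35%. The NASH animals were picked by the study for bridging fibrosis and the controls at random among animals free of NASH and fibrosis, so diet and disease cannot be told apart. The tissue came from the left lateral lobe of livers that had not been perfused, which leaves blood cells in the sample. In whole tissue, fewer cells of a type and less RNA per cell cannot be told apart either.

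Kupffer cells are the macrophages that reside in the liver sinusoids, where they take up particles, bacteria and modified lipoproteins from the portal blood. When they are lost or outpaced in chronic liver injury, monocytes enter from the blood and become macrophages in their place. In fatty and fibrotic livers, many of these cells take on a lipid-associated or scar-associated form that is known for *TREM2*, *CD9* and *GPNMB*. *MARCO*, in contrast, is a scavenger receptor known as a marker of Kupffer cells, while *CSF1R*, *CD14* and *CD68* are carried by macrophages of both kinds. None of these genes is fully specific, since *CD9* and *LGALS3*, for instance, are also made by epithelial cells and fibroblasts.

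The libraries held 16980274 to 28636467 counts in controls and 23704607 to 33091460 in NASH. Levels are given in CPM, the counts of a gene scaled to a common library size, where each library size was adjusted by the trimmed mean of M values (TMM), and differences as log2 fold changes of NASH against control from edgeR. The libraries were of liver as labelled, with *ALB*, the albumin gene of hepatocytes, between 66430 and 85800 CPM in controls and between 23970 and 39060 CPM in NASH. The TMM factors were 0.801 to 0.873 in controls and 1.12 to 1.24 in NASH. With library size alone, the median over all genes of the log2 fold change went from -0.01 to 0.48, so that a difference between the groups smaller than this depends on the scaling. One control library, that of animal 5, stood apart from the other controls in several macrophage genes, and results that rest on it are given with and without it.

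Of the 10 macrophage genes, 7 were higher in NASH (*TREM2*, *TYROBP*, *GPNMB*, *CD9*, *LGALS3*, *MSR1* and *CD68*), 1 was lower (*MARCO*), and *CD14* and *CSF1R* did not pass the test. Among all genes with a symbol, 27.6% were higher and 26.7% lower, 54.2% in all, by the same test (edgeR, Benjamini-Hochberg adjusted p under 0.05). In 6 of the 7 higher genes, all but *MSR1*, every NASH animal lay above every control animal, which held for 18.0% of all genes. The counts of macrophage genes were again 7 higher and 1 lower without control 5, where 27.2% of all genes were higher and 26.3% lower. With library size alone, 9 were higher and 1 lower, beside 63.9% and 7.66% of all genes.

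**Figure D1:**
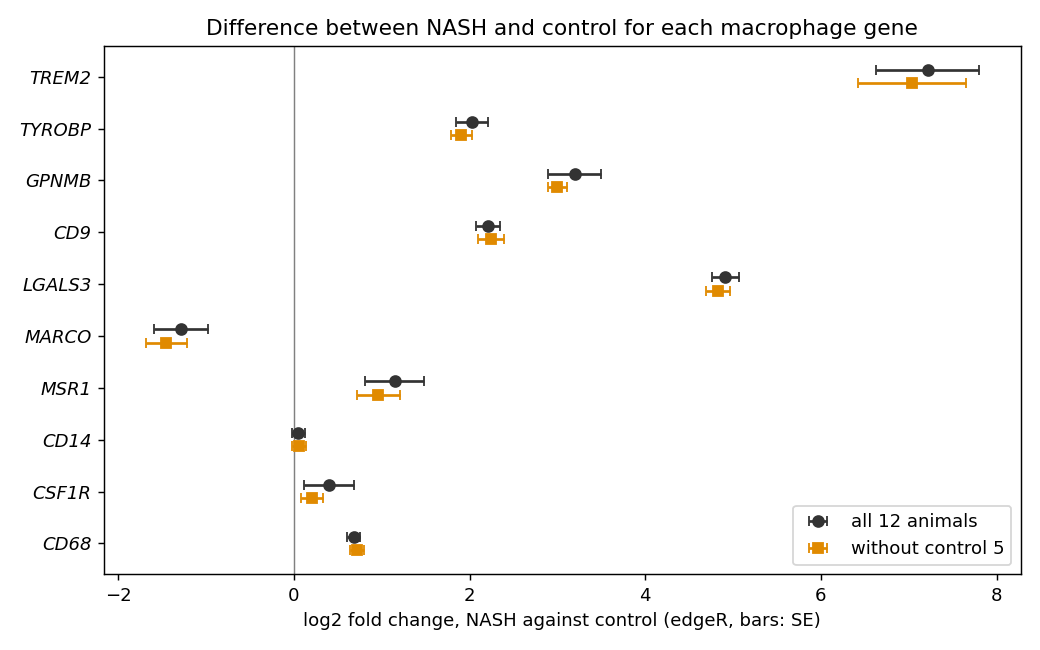
Log2 fold change of each macrophage gene in NASH against control from edgeR, with bars of 1 standard error, for all 12 animals (black circles) and without control 5 (orange squares). *MARCO* lies below 0 under both, *CD14* and *CSF1R* lie close to 0, and *TREM2* and *LGALS3* lie farthest above it at 7.21 and 4.91.

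*TREM2* encodes a receptor for lipids and lipoproteins on macrophages that is the best known marker of the lipid-associated state. Its row held no count in 5 of the 6 controls and 9 counts (0.413 CPM) in control 32, whereas the NASH animals ranged from 9.04 to 19.2 CPM with a median of 10.9. The groups were thus separated by a gap that no animal entered, and within NASH the animal 2 stood highest. The log2 fold change was 7.21 (SE 0.584, edgeR adjusted p = 8.7e-07). Because its size rests on the few counts of control 32, a bound is given as well. The 5 controls without a count were taken at the limit of 3 counts, at most 0.215 CPM in any of them. Against these, the NASH mean of 12.2 ± 3.71 CPM (SD, n = 6) was higher by at least 56.7-fold. This bound holds for the mean and not for each animal, as the lowest NASH animal held 9.04 CPM. It also leaves out control 32, whose 0.413 CPM lay above that limit.

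The assembled locus numbered directly before that of *TREM2* carries no symbol, and which gene it covers is not known here. It held 4 to 35 counts in controls and 266 to 401 in NASH, that is 1.16 ± 0.616 and 9.67 ± 0.511 CPM (SD, n = 6). Its log2 fold change was 3.04 (SE 0.292, edgeR adjusted p = 3.12e-06). If its reads are added to those of *TREM2*, a step chosen after the counts had been seen, the levels become 1.23 ± 0.695 and 21.9 ± 3.94 CPM and the log2 fold change 4.13 (SE 0.318, adjusted p = 6.21e-07). The direction is the same under both readings, while the size of the *TREM2* difference and its near absence in controls depend on whether that locus belongs to it.

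*TYROBP* encodes DAP12, the adaptor through which TREM2 signals and which other myeloid receptors and natural killer cells share. It ranged from 11 to 25.6 CPM in controls, with a median of 22.1, and from 69.4 to 97.7 CPM in NASH, with a median of 85.2. All NASH animals lay well above all controls, and control 5 held the lowest value. The log2 fold change was 2.03 (SE 0.181, edgeR adjusted p = 1.76e-06) with all animals and 1.90 (SE 0.12, adjusted p = 5.13e-07) without control 5.

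*GPNMB*, a transmembrane glycoprotein of lysosomes in lipid-laden macrophages, ranged from 14.2 to 70.1 CPM in controls (median 59.8) and from 431.5 to 577.5 CPM in NASH (median 490.4). The 5 controls other than animal 5 lay close together at 54.7 to 70.1 CPM. The log2 fold change of 3.20 (SE 0.304, edgeR adjusted p = 3.11e-06) became 3.0 (SE 0.112, adjusted p = 2.3e-08) when control 5 was left out. Its error thus shrank more than its size.

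*LGALS3* encodes galectin-3, a lectin that macrophages release in fibrotic tissue. Levels of 4.30 to 7.79 CPM in controls (median 6.16) stood against 141.7 to 215.4 CPM in NASH (median 184.9). The animals of each group clustered tightly, at 6.13 ± 1.12 CPM in controls and 185 ± 27.7 CPM in NASH (SD, n = 6). The log2 fold change was 4.91 (SE 0.153, edgeR adjusted p = 1.62e-09), a 30.1-fold difference in level.

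*CD9* encodes a tetraspanin of the cell surface that, with *TREM2*, gave scar-associated macrophages their marker pair. It ranged from 11.6 to 16.8 CPM in controls (median 13.9) and from 49.3 to 78.9 CPM in NASH (median 67.1), again with no overlap. NASH exceeded control by 2.21 on the log2 scale (SE 0.136, edgeR adjusted p = 1.39e-07). Unlike the 3 genes before it, *CD9* was not low in control 5, where it had its second highest control level of 15.9 CPM.

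*MARCO* was the only one of the 10 genes that fell. It ranged from 28.7 to 109.5 CPM in controls (median 88.1) and from 22.3 to 55.1 CPM in NASH (median 33.1). Control 5 was the sole control inside the NASH range, and the other 5 controls held 66.3 to 109.5 CPM, above every NASH animal. In NASH, animal 41 was highest at 55.1 CPM. On the log2 scale the change was -1.28 (SE 0.307, edgeR adjusted p = 0.0035), and -1.46 (SE 0.232, adjusted p = 0.000285) without control 5. Library size alone gave -0.81 (edgeR adjusted p = 0.0339).

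*MSR1* encodes the class A scavenger receptor for modified low-density lipoprotein, a relative of *MARCO*. It moved the other way, from 10.6 to 47.6 CPM in controls (median 40.3) to between 43.4 and 129.5 CPM in NASH (median 74.4). The groups overlapped, as NASH animal 11 lay below control 10. The log2 fold change was 1.15 (SE 0.331, edgeR adjusted p = 0.0108), and 0.96 (SE 0.246, adjusted p = 0.00642) without control 5. The NASH animal 41, highest in *MARCO*, was also highest in *MSR1*.

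*CD14*, the co-receptor for bacterial lipopolysaccharide, ranged from 68.3 to 89.0 CPM in controls (median 77.9) and from 74.8 to 88.4 CPM in NASH (median 79.0). The ranges lay almost on top of each other. Its log2 fold change was 0.05 (SE 0.0734, edgeR adjusted p = 0.604). Hepatocytes are known to make *CD14* too, so its level need not follow macrophages alone. With library size alone the value became 0.53 (adjusted p = 3.49e-05), close to the shift of the median gene under that scaling.

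*CSF1R* encodes the receptor for the growth factors that macrophages need to survive. In controls it spanned 6.88 to 39.6 CPM (median 27.7), and in NASH 29.6 to 37.3 CPM (median 36.1). The wide control range came from animal 5, and the other controls held 24.2 to 39.6 CPM, on both sides of the NASH animals. The log2 fold change was 0.40 (SE 0.283, edgeR adjusted p = 0.252), and 0.21 (SE 0.123, adjusted p = 0.182) without control 5. Library size alone gave 0.87 (adjusted p = 0.0155).

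*CD68*, a lysosomal glycoprotein used as a general stain for macrophages, ranged from 155.5 to 196.2 CPM in controls (median 174.8) and from 244.2 to 307.5 CPM in NASH (median 280.7). The groups did not overlap, and the log2 fold change was 0.68 (SE 0.0761, edgeR adjusted p = 9.98e-06). A limit attaches to this row. In the RefSeq annotation of assembly mCavPor4.1, *EIF4A1*, a translation factor that nearly every cell makes, lies directly beside *CD68*, and its symbol is not in the deposited table. The 5 other assembled loci numbered between the neighbouring genes *MPDU1* and *SENP3* held at most 63 counts in any animal, and the reads of *CD68* and *EIF4A1* cannot be told apart here.

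**Figure D2:**
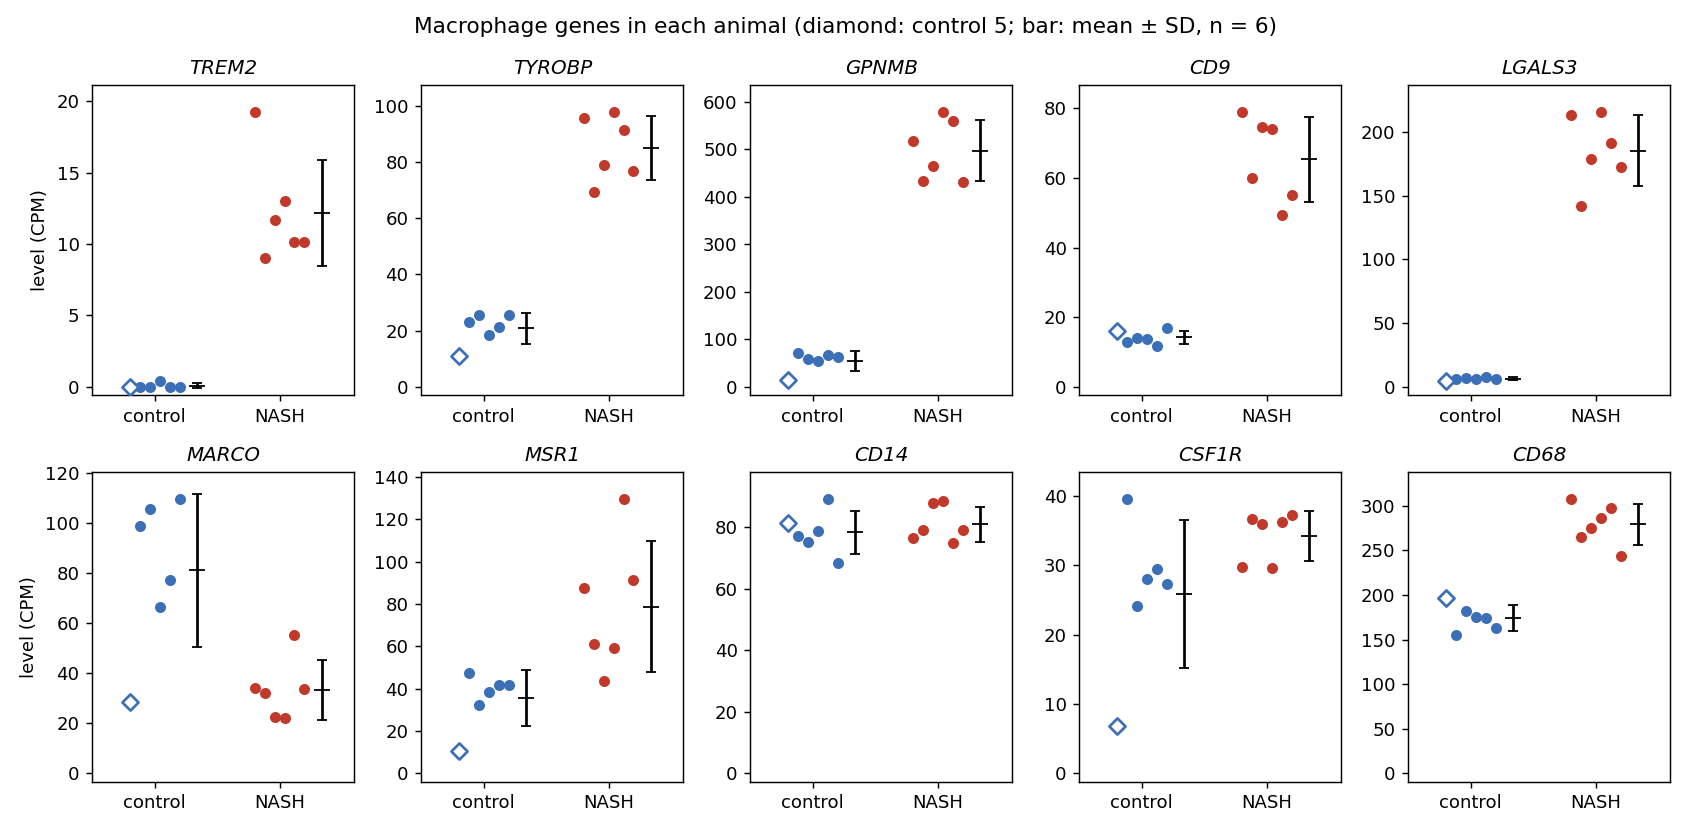
Level in CPM (TMM-scaled) of each macrophage gene in each of the 6 control and 6 NASH animals, with the mean and SD of each group beside the points and control 5 as an open diamond. The groups are apart in *TREM2*, *TYROBP*, *GPNMB*, *CD9*, *LGALS3* and *CD68*, *MARCO* is lower in NASH with control 5 inside the NASH range, and *CD14* and *CSF1R* overlap.

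To set a lipid-associated against a resident gene within each animal, the log2 ratio of *TREM2* to *MARCO* was taken from log2 CPM with a prior count of 2. It was -9.46 ± 1.37 in controls and -1.42 ± 0.68 in NASH (SD, n = 6), a difference of 8.04. Every NASH animal lay above every control. As *TREM2* alone already set every NASH animal above every control, this order follows from it, and no test of the ratio is given. Because the control values rest on the prior count where *TREM2* had no count, the size of the difference is less firm than its direction, and it was 9.73 with a prior count of 0.5 and 2.71 on the deposited rlog values.

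Relative to *CSF1R* in the same animal, a ratio that library scaling hardly touches, 3 further genes stood higher in NASH without overlap. The log2 ratio of *TYROBP* was -0.79 to 0.67 in controls and 0.92 to 1.72 in NASH. For *GPNMB* it was 0.82 to 1.3 in controls and 3.53 to 4.28 in NASH, and for *LGALS3* -2.72 to -0.67 and 1.95 to 2.86. *MARCO* went the other way, at 1.24 to 2.12 in controls and -0.68 to 0.60 in NASH, and here control 5, at 2.05, lay with the other controls. *MARCO* was therefore lower per unit of *CSF1R* in every NASH animal than in any control, control 5 included. *CD9*, *MSR1*, *CD14* and *CD68* overlapped between the groups on this scale. For *CD9* the overlap came from control 5 at 1.20, as the other controls lay at -1.60 to -0.70 and the NASH animals at 0.44 to 1.4. The other 3 genes overlapped without control 5 as well.

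**Figure D3:**
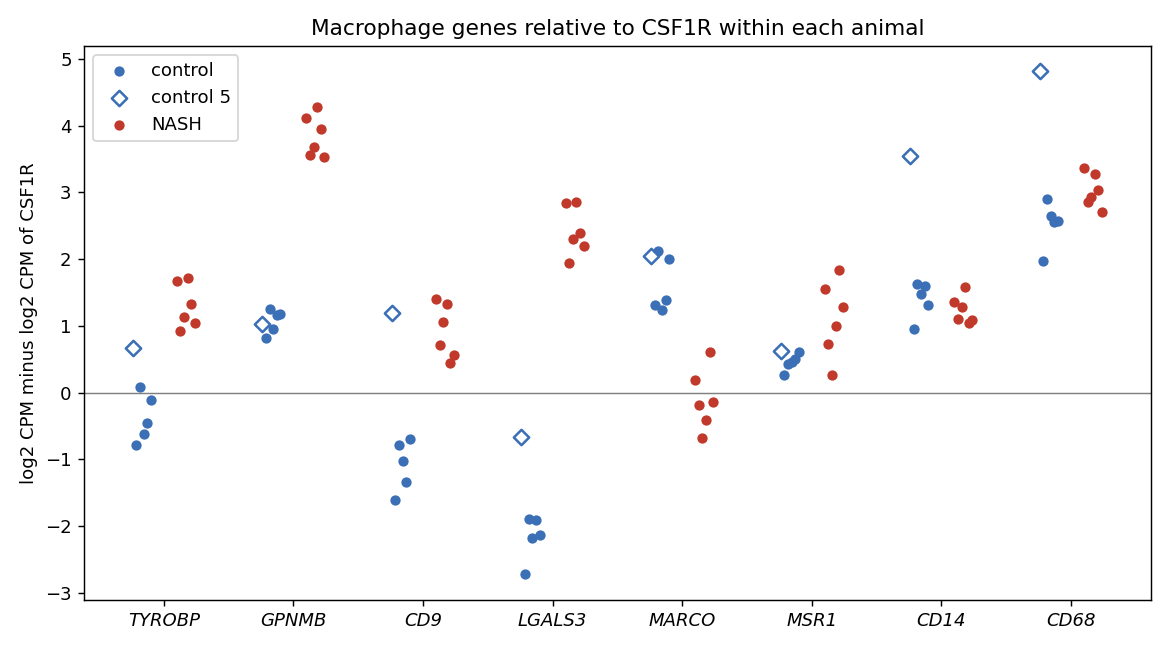
Log2 CPM of each gene minus log2 CPM of *CSF1R* within each animal, for the 6 controls (blue, control 5 as an open diamond) and the 6 NASH animals (red). *TREM2* is left out because most controls had no count. *GPNMB*, *MARCO* and *MSR1* of control 5 lie within or at the edge of the other controls, at 1.04, 2.05 and 0.62, while its *CD14* and *CD68* stand far above them at 3.54 and 4.82.

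Control 5 was singled out because earlier results had shown its macrophage genes to be low, so its values are a description. It had the lowest level of the 6 controls in 6 of the 10 genes (*GPNMB*, *CSF1R*, *MSR1*, *MARCO*, *TYROBP* and *LGALS3*), where it was lowest in 25.2% of all genes, and nothing is read from that count. Its *GPNMB* differed from the mean of the other 5 controls by -2.12 in log2 CPM, where those 5 had an SD of 0.14. The same difference was -2.08 for *CSF1R* (SD 0.26), -1.91 for *MSR1* (SD 0.20) and -1.64 for *MARCO* (SD 0.31). *TYROBP* and *LGALS3* were less far down, at -1.04 (SD 0.20) and -0.58 (SD 0.15). *CD14*, *CD9* and *CD68* were not low, with differences of 0.07, 0.21 and 0.21. The genes of this animal therefore did not all drop by a common factor, but its ratios of *GPNMB* and *MARCO* to *CSF1R* lay within those of the other controls, and that of *MSR1* just at their upper edge.

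**Figure D4:**
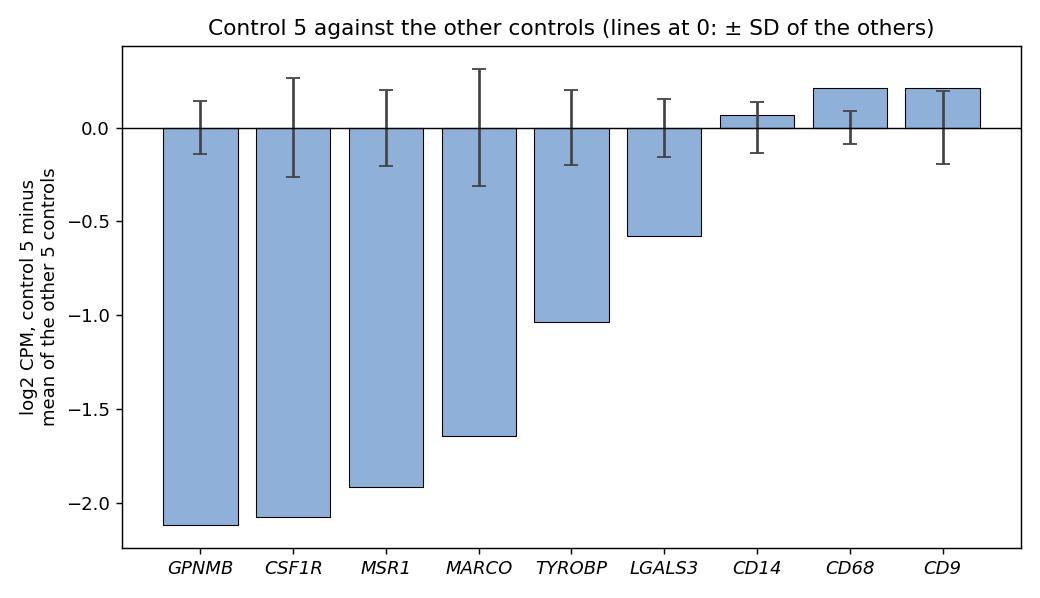
Log2 CPM of control 5 minus the mean of the other 5 controls for each macrophage gene (bars), with lines at 0 for ± 1 SD of those 5 controls. *TREM2* is left out because control 5 and 4 of the others had no count. Bars for *GPNMB*, *CSF1R*, *MSR1* and *MARCO* end between -1.64 and -2.12, and *CD14*, *CD68* and *CD9* lie slightly above it.

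How the genes varied together within groups was described by correlating rlog values centred on their group mean over the 12 animals, which share their library and scaling. *TYROBP* and *GPNMB* had r = 0.90, and 0.74 without control 5. *MARCO* and *MSR1*, the related scavenger receptors, had r = 0.88, and 0.73 without it. In contrast, *GPNMB* and *CSF1R* had r = 0.86 with control 5 and -0.02 without it, and *GPNMB* and *MARCO* 0.77 and 0.19, so that in these pairs the correlation rested on that animal. *MARCO* and *CD14* ran against each other with r = -0.62, and -0.77 without control 5.

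By the same measure over all genes, those most like *MARCO* were *THEMIS2* (r = 0.97), *PLXND1* (0.96), *ATP13A2* (0.95), *C1QB* (0.94) and *GNG2* (0.94). Without control 5 their r was 0.91, 0.91, 0.86, 0.93 and 0.84. *C1QB* encodes a chain of complement C1q, which liver macrophages make. For *TREM2* the measure rests on the NASH animals and control 32, since the other 5 controls had no count. The genes most like it were *CHN1*, *CX3CL1*, *CEBPZOS* and *CCL2* (each r = 0.91) and *KRT23* (0.90), and without NASH animal 2, the highest in *TREM2*, these values fell to between 0.65 and 0.70. *CCL2* encodes a chemokine that draws monocytes from the blood and *CX3CL1* the ligand of CX3CR1. Such likeness over 12 animals is a description only.

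Other genes of macrophage biology were taken from 8 short lists, and their counts, like those of the marker lists further on, stand beside 27.6% higher and 26.7% lower among all genes. Of 20 Kupffer cell identity genes, 15 were in the table, of which 3 were higher, 2 lower and 10 past neither side (edgeR), with a median log2 fold change of 0.17 beside -0.01 for all genes, and of 0.02 without control 5. The mannose receptor *MRC1*, shared with sinusoidal endothelium, fell from 62.2 to 121.4 CPM in controls (median 96.8) to between 51.3 and 69.0 CPM in NASH (median 58.0), by 0.68 on the log2 scale (adjusted p = 0.00102), while with library size alone its value was -0.20 (adjusted p = 0.228). The lowest *MRC1* level among controls was that of control 5, and the others held at least 90.8 CPM, above every NASH animal. Without control 5 the *MRC1* value was -0.77 (edgeR adjusted p = 5.83e-05). *NR1H3*, the liver X receptor alpha, fell by 1.25 (adjusted p = 3.86e-06), though hepatocytes make it too. The 3 genes that rose were the metal transporter *SLC11A1* (3.39, adjusted p = 1.28e-07), the heme oxygenase *HMOX1* (0.82, adjusted p = 0.00118) and the iron exporter *SLC40A1* (0.39, adjusted p = 0.0211).

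The other Kupffer cell genes were measured but did not pass. *CD5L*, a secreted scavenger protein of resident macrophages, had a log2 fold change of -0.83 (edgeR adjusted p = 0.159) and *C1QA* 0.19 (adjusted p = 0.718). *CLEC4F*, a lectin specific to Kupffer cells in rodents, had -0.74 (adjusted p = 0.0844) and was the gene whose call hung on control 5. It held 12.8 CPM in that animal, 48.5 to 79.1 CPM in the other controls and 27.6 to 47.6 CPM in NASH. Without control 5 its value was -0.95 (adjusted p = 0.000545), and the list then had 3 higher and 3 lower genes. *CLEC4F* was picked out after its values had been seen. *VSIG4*, *TIMD4*, *CD163*, *FOLR2* and *ADGRE1* were not analysed here.

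Of 24 genes of lipid- and scar-associated macrophages, 18 were in the table, with 15 higher and 1 lower. Their median on the log2 scale was 1.63, and 1.55 without control 5. The pattern recognition receptor *CLEC7A* had the highest value of the list, 5.11 (SE 0.362, edgeR adjusted p = 3.57e-07), with 0.206 to 1.56 CPM in controls and 16 to 26.9 CPM in NASH. *FABP5*, a fatty acid carrier, rose from 2.65 to 5.79 CPM in controls to between 94.4 and 164.3 CPM in NASH (log2 fold change 4.95, adjusted p = 1.21e-08). Lipoprotein lipase, *LPL*, rose from 1.70 to 3.63 CPM to between 44.8 and 60.4 CPM (4.32, adjusted p = 6.53e-09). These 3 genes were apart between the groups in every animal.

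The remaining named genes of the list had smaller differences. Osteopontin, *SPP1*, had a log2 fold change of 1.97 (edgeR adjusted p = 0.00948) and *FABP4* 1.99 (adjusted p = 0.000398). *SPP1* was highest among controls in animal 5, at 28.8 CPM, and *FABP4* was lowest there, at 1.86 CPM. Without control 5, *SPP1* had 2.37 (edgeR adjusted p = 0.00378) and *FABP4* 1.81 (adjusted p = 0.000281). The lysosomal genes *LIPA*, *CTSB* and *CTSD* had values of 1.42, 1.16 and 1.42 with adjusted p of 2.23e-05, 2.69e-07 and 1.08e-07, where *CTSD* shares its count row with another symbol. *APOE*, which hepatocytes make in large amounts, had -0.17 (adjusted p = 0.174), and the ferritin light chain *FTL* was the 1 lower gene at -0.22 (adjusted p = 0.0307), a direction that turned with library size alone, at 0.26 (adjusted p = 0.026).

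Genes of monocytes and recruited macrophages were in the table for 13 of 18, and 9 were higher and none lower. Their median on the log2 scale was 1.84, and 1.61 without control 5. *CCL2* had the highest value, 5.93 (SE 0.425, edgeR adjusted p = 3.8e-07), from 0.135 to 1.06 CPM in controls to between 17.1 and 44.2 CPM in NASH. Its receptor *CCR2*, whose count row carries another symbol as well, had 2.46 (adjusted p = 0.0012), with control values of 0.143 to 2.23 CPM and NASH values of 2.12 to 8.24 CPM that overlapped narrowly. *CX3CR1*, the fractalkine receptor, had 1.08 (adjusted p = 0.00261) and *S100A9*, part of calprotectin, 2.03 (adjusted p = 0.0238) at levels of at most 1.73 CPM. *LY96* had the lowest value, -0.06 (adjusted p = 0.576).

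Of 19 genes of macrophages and leukocytes in general, 15 were in the table and 12 were higher, 14 without control 5, and none lower under either. Their median log2 fold change was 0.91, and their summed level was 158 to 343 CPM in controls, with control 5 at the lower end, and 535 to 665 CPM in NASH. *LAPTM5* had the highest value, 1.55 (SE 0.183, edgeR adjusted p = 1.72e-05), and *CSF2RB* the lowest, 0.36 (adjusted p = 0.199). The leukocyte antigen *PTPRC* had 0.86 (adjusted p = 4.25e-05) and *AIF1*, which encodes IBA1, 0.76 (adjusted p = 0.00203). Control 5 was the lowest control in 13 of these 15 genes (86.7%, beside 25.2% of all genes).

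Around *TREM2* and *TYROBP*, 15 of 18 listed genes of signalling, ligands and shedding were in the table, with 10 higher, 11 without control 5, and none lower (median log2 fold change 0.70). The kinase *SYK*, which docks on phosphorylated TYROBP, had the highest value, 1.63 (SE 0.171, edgeR adjusted p = 5.85e-06), and rose from 2.29 to 5.82 CPM in controls to between 12.6 and 15.5 CPM in NASH. *ADAM17*, a protease that sheds TREM2 from the cell, had 0.50 (adjusted p = 0.00127). Control 5 was lowest in 11 of the 15 (73.3%, beside 25.2% of all genes).

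Around *CSF1R*, 10 of 15 genes of its axis and of macrophage transcription factors were in the table, with 5 higher, 1 lower and a median of 0.81 on the log2 scale, and 4 higher and 1 lower without control 5. The ligand *IL34* rose by 1.25 (edgeR adjusted p = 2.57e-06) and *SPI1*, the master factor PU.1 of myeloid cells, by 1.38 (adjusted p = 6.34e-05), while *CSF1R*, the receptor of IL34, did not pass. *RUNX1* had the highest value, 2.62 (adjusted p = 2.63e-07).

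Around *CD14*, 8 of 10 genes of lipopolysaccharide sensing were in the table, with 2 higher, 1 without control 5, and none lower, a share of higher genes near that of all genes. *TLR4*, the receptor that CD14 serves, was higher under both, by 1.05 (edgeR adjusted p = 0.00052) with all animals and by 0.96 (adjusted p = 0.00094) without control 5. *LBP*, the plasma protein that hands lipopolysaccharide to CD14, had -1.05 (adjusted p = 0.11) and ranged from 107.8 to 788.8 CPM among controls.

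Beside *MARCO* and *MSR1*, 13 of 16 scavenger receptors were in the table, with 7 higher and 3 lower and a median of 0.44 on the log2 scale. *SCARA3* had the highest value, 2.69 (edgeR adjusted p = 8.91e-08), and *SCARF1*, an endothelial receptor whose count row carries another symbol, the lowest, -0.96 (adjusted p = 5.55e-05). The high-density lipoprotein receptor *SCARB1* had -0.35 (adjusted p = 0.025), and 0.13 (adjusted p = 0.349) with library size alone. The receptors for dying cells, *MERTK* and *AXL*, had 0.50 (adjusted p = 0.0217) and 0.23 (adjusted p = 0.00951), the latter on a shared row.

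**Figure D5:**
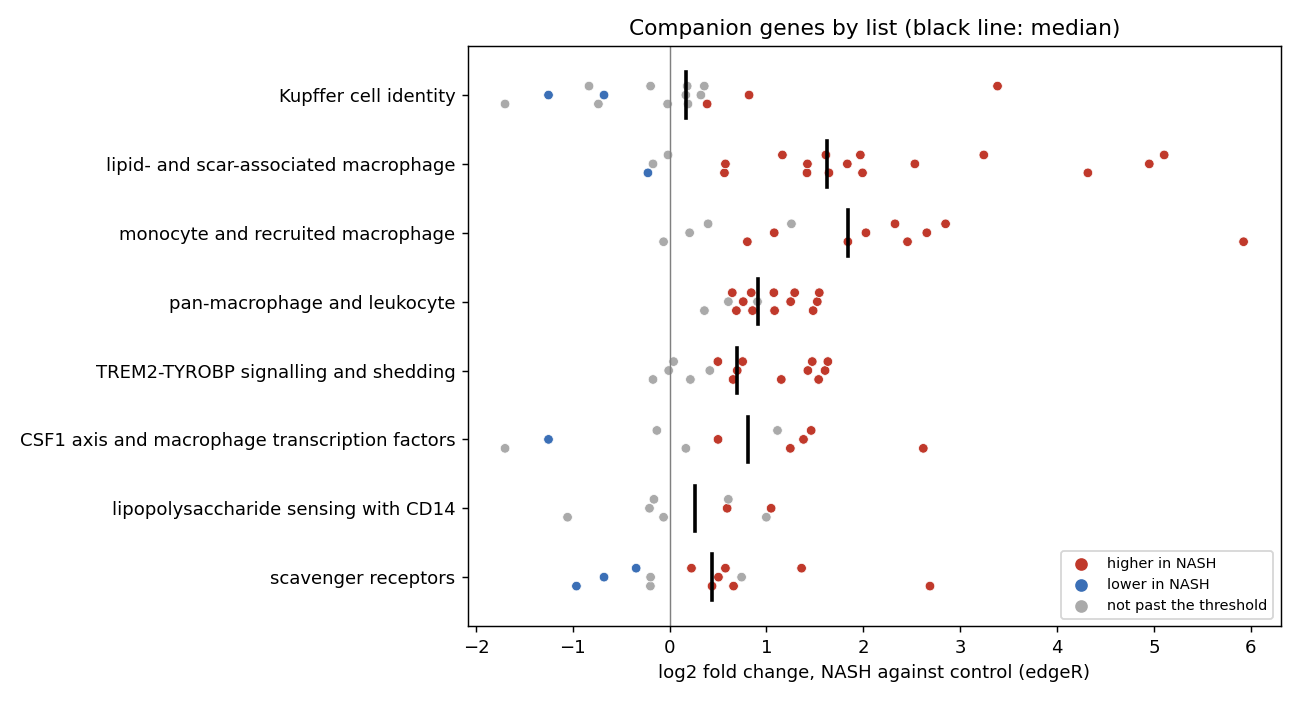
Log2 fold change of NASH against control (edgeR) for each gene of the 8 lists, in red where higher, in blue where lower and in grey where not past the threshold, with the median of each list as a black line. The medians lie at 0.17 for Kupffer cell identity, 1.63 for lipid- and scar-associated macrophages and 1.84 for monocytes and recruited macrophages. Without control 5 these medians were 0.02, 1.55 and 1.61.

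Markers of other liver cells also differed between the groups. Of 8 cholangiocyte markers, 6 were in the table and 5 were higher, and their summed level was 91.4 to 122 CPM in controls and 312 to 545 CPM in NASH. All 9 markers of stellate cells and fibroblasts were in the table and 7 were higher, with sums of 626 to 750 and 1150 to 2230 CPM. Hepatocyte markers were in the table for 7 of 9, and 6 were lower, with sums of 105000 to 135000 and 41200 to 67200 CPM. No marker of these lists was at 0 in all controls. The part of these cells in the macrophage gene differences, *CD9*, *LGALS3* and *CD14* included, was not tested. Nor was their part in the differences of the lists of macrophage biology.

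Markers of blood cells and endothelium were also read in these unperfused livers, and only some of their lists moved in a single direction. The 5 of 7 erythroid markers in the table were all higher, with sums of 57.9 to 175 CPM in controls and 432 to 4550 CPM in NASH. The 4 of 6 B cell markers in the table were all higher (sums 6.31 to 12.9 and 23.5 to 32.3 CPM). Among the 7 of 8 T cell markers measured there was 1 higher and 1 lower (61.1 to 116 and 36.9 to 65.4 CPM). The T cell sum was mostly that of the lower gene *CD3E* (45.2 to 99.8 and 21.9 to 48.8 CPM). *CD3G* passed as lower too without control 5, at -0.43 on the log2 scale (edgeR adjusted p = 0.0352). With all animals the *CD3G* value was -0.37 (adjusted p = 0.0625). Of the 3 of 8 platelet markers in the table, 2 were higher (84.0 to 198 and 239 to 272 CPM). That sum was mostly *ITGA2B* and *ITGB3*, and the count row of each carries another symbol. The higher genes were *ITGB3* and *TUBB1*, and *TUBB1* did not pass without control 5 (edgeR adjusted p = 0.0552, beside 0.029 with all animals). Of the 3 of 7 neutrophil markers, 1 was higher and 1 lower (113 to 172 and 81.7 to 100 CPM). The neutrophil sum was carried by *CEACAM8*, whose row 17 symbols share. Endothelial markers had 3 higher and 2 lower of 8, with sums of 560 to 760 and 611 to 881 CPM, and control 5 had the lowest control level in 5 of the 8 (62.5%, beside 25.2%). The part of these cells in the differences of the macrophage genes and of the lists of macrophage biology was not tested.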

How the data were processed

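Liver RNA of 6 NASH and 6 control guinea pigs was sequenced, and groups were taken from the sample labels. The authors trimmed reads with Trimmomatic 0.38.0, mapped them with HISAT2 2.1.0 to Cavpor3.0 and assembled and counted them with StringTie 1.3.6. The authors deposited raw counts per assembled locus, without symbols, and log2 values from the rlog transformation of DESeq2, under human symbols, for genes with a total of at least 200 counts. Symbols were tied to count rows by making that transformation again, which gave back the value of every symbol (largest difference 8.35e-07) from 11031 rows, and each macrophage gene stood on a row of its own. Any pair of animals of a group differed by at least 43.9 times counting error.

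Counts were tested in R 4.3.3 with edgeR 4.0.16 (TMM factors, whole-table library size, robust glmQLFit, glmQLFTest), with Benjamini-Hochberg adjustment over all symbols and a threshold of 0.05. Log2 CPM used a prior count of 2, and a count of 0 was taken to allow 3 counts, a limit that covers counting error only. P-values measure the spread between single animals. The macrophage genes and gene lists were chosen with earlier results of these data known. Named were the macrophage genes, preset genes of each list, its highest and lowest gene, the highest marker where given, and the 5 genes most like *TREM2* and *MARCO*. *CLEC4F*, *MRC1*, *NR1H3* and *SLC40A1* were named after their values were seen. For 1 gene of the lists, counted with the rest, the value is not reported here. Gene neighbours came from RefSeq (mCavPor4.1, 10 of 10 genes matched), which differs from the authors' genome, so no coordinate is given. Alternatives were RLE and upper-quartile factors, library size alone, DESeq2 1.42.0, limma-voom and limma 3.58.1 on rlog values, other count filters and thresholds, and each animal left out. The edgeR procedure was tested on simulated data.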

Additional observations from a re-analysis of the deposited data

Results flagged for a closer look

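Single animals stood apart from their group by a gap past Dixon's critical value in 3 of the 22 groups of 6 values tested. Each of the 3 was 1 gene in 1 group, and chance alone would flag about 1 in 20. The count of 3 is not to be read against that share, for the reasons given with *TREM2* and *GPNMB*. *TREM2* in control 32, at 0.413 CPM, was the only control level above 0, from 9 counts, and with the other 5 at 0 any count would have stood apart. *GPNMB* in control 5, at 14.2 CPM, lay below the other controls, the gap making up 0.725 of the range, but this animal was already known for low macrophage genes, so the value is a description. *MARCO* in NASH animal 41, at 55.1 CPM, lay above the other NASH animals, with a gap of 0.638 of the range. Outside the genes with a symbol, the locus numbered before that of *TREM2* had a mean of 9.67 CPM in NASH beside 1.16 CPM in controls.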

How the results depend on the processing

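The direction of every macrophage gene was the same under the 11 other settings and in the 12 fits without one animal. Of the 10 genes, 7 were higher and 1 was lower in each of these fits without one animal. The number higher was 5 when tested against an absolute log2 change of 1, 6 at a threshold of 0.01 (without *MSR1*) and 9 with library size alone (with *CD14* and *CSF1R*). The number lower was 0 when tested against a log2 change of 1, where *MARCO* had an adjusted p of 0.469. Without one animal the log2 fold change of *MARCO* ranged from -1.48 to -1.18 and that of *TREM2* from 6.90 to 11.32, the last without control 32, where no control has a count and the fitted size is no bound. With library size alone the log2 fold change of *MARCO* was -0.81, and with limma on rlog values it was -0.76. The *TREM2* to *MARCO* difference was 7.84 to 8.52 without one animal. Over all genes, 7600 were higher and 911 lower with library size alone and 845 and 251 in the test against a change of 1, beside 3279 and 3171. Of the lists, Kupffer cell genes had 8 higher and 1 lower with library size alone and 4 lower with DESeq2, and lipopolysaccharide sensing had 5 and 4 higher. In the test against a change of 1, the number higher was 2 in the pan-macrophage list, 5 in the monocyte list, 3 in the signalling list, 1 each in the scavenger receptor, Kupffer cell and *CSF1R* axis lists and 0 in lipopolysaccharide sensing. At a threshold of 0.01 the *CSF1R* axis had 3 higher and lipopolysaccharide sensing 1. The cause of these shifts was not tested. No paired analysis was possible because the animal numbers are not shared between the groups. Depth limits *TREM2* in controls, where 3 counts stand for up to 0.215 CPM.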
